A study of Mus musculus with 14 samples.

Results

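TNF receptor and NF-kB feedback genes were described in lungs of ventilated and non-ventilated mice, with and without the jnk1 gene, which encodes the stress kinase JNK1. The 10 genes asked for were Tnf, Tnfrsf1a, Tnfrsf1b, Tnfrsf12a, Nfkbia, Tnfaip3, Birc3, Nfkb1, Nfkb2 and Relb, and all probes with one of these names, or an older synonym of it, were taken. 9 genes were measured, by 10 of the 19621 probes on the array, which name 13923 distinct genes. Birc3 has 2 probes, and the brighter one stands for the gene. No probe carries the name Nfkb1, which was not analysed here.

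The arrays held RNA of the right lung from 4 ventilated jnk1-/- mice, 3 jnk1-/- controls, 4 ventilated wild-type mice and 3 wild-type controls, with 1 array for each animal by the series' description. All mice were adults, age and sex matched, their age in weeks not being given in the sources used here. The wild-type mice were C57/BL6, and the jnk1-/- mice lacked the gene in every cell from conception and were on the same background. Ventilated mice received a tidal volume of 10 ml/kg for 8 hours with an end-expiratory pressure of 2 cmH2O. Controls were anesthetized in the same way, with ketamine and acepromazine, and killed without ventilation. The hours under anesthesia, the tracheostomy and the muscle relaxant therefore came with ventilation, and their effects cannot be told apart from it.

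Tumor necrosis factor, the product of Tnf, binds the receptors encoded by Tnfrsf1a, which most cells carry, and Tnfrsf1b, found mainly on leukocytes and endothelium. Their signal, and that of other receptors of the family, frees dimers of the transcription factor NF-kB from the inhibitor encoded by Nfkbia and from the unprocessed product of Nfkb2. NF-kB then switches on genes that end the signal, among them Nfkbia itself and the ubiquitin-editing enzyme gene Tnfaip3. It also switches on Birc3, which encodes the ubiquitin ligase cIAP2. Tnfrsf12a encodes the receptor of the cytokine TWEAK, known to rise in injured and regenerating epithelium.

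Promoter sequences are given for 4 members because they differ in whether they hold an NF-kB motif. Each is the 250 bases before the start site, 5′ to 3′ on the strand of the gene, from RefSeq on GRCm38.p6. A table of promoters held 8 of the 10 genes, and Relb and Nfkb1 were not among them. Capitals mark matches to the NF-kB consensus or to the AP-1 motif TGANTCA, the site of the Jun and Fos factors, both searched on both strands. Of 32851 windows of this length in RefSeq, 7.25% held a match to the NF-kB consensus and 6.75% the AP-1 motif. A match is a run of letters and not a shown binding site.
Tnfrsf12a, chr17:23677450-23677699, minus strand: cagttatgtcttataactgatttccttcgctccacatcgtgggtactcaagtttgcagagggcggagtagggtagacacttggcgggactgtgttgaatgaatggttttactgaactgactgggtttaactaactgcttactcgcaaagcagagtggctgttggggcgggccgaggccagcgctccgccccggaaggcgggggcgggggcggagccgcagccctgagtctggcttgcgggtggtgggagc
Nfkbia, chr12:55492648-55492897, minus strand: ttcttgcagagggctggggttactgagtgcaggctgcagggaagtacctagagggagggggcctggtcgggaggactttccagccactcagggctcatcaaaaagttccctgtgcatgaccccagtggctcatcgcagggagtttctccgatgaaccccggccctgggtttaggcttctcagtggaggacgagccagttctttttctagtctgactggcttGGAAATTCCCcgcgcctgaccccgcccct
Tnfaip3, chr10:19015411-19015660, minus strand: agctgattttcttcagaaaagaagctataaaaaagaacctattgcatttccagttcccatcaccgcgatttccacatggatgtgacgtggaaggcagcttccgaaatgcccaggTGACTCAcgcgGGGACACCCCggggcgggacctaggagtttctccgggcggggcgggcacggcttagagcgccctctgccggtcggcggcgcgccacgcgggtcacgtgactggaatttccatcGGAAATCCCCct
Nfkb2, chr19:46304487-46304736, plus strand: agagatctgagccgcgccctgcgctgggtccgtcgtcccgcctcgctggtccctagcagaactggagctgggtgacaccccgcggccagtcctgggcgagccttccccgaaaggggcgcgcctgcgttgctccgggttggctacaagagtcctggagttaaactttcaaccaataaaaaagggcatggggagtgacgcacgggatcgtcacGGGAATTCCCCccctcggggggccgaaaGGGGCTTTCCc

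The Nfkbia window held 1 match to the NF-kB consensus, 29 to 20 bases before the start. The Tnfaip3 window shown held matches at 125 to 116 and at 12 to 3 bases before its start, with an AP-1 motif at 136 to 130 bases. A second Tnfaip3 window, not shown, held neither motif. In Nfkb2, which has 3 windows in the table and is shown by the first, matches lay at 39 to 29 bases, where 2 overlap, and at 11 to 2 bases. The windows of Tnf, Tnfrsf1a, Tnfrsf1b, Tnfrsf12a and Birc3 held neither motif, which says only that these letters are not in those 250 bases.

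Values are log2 intensities after normalization between arrays, on which 1 unit is a doubling of signal, and levels of different probes cannot be set against each other. Array medians lay between 5.76 and 5.84 after this step. The authors' own normalized table of the same arrays has a floor at 3.12, which holds 24.5% of its values, and a probe there has only an upper bound. Lung epithelium markers were present throughout, with mean levels from 9.56 (Sftpb) to 14.36 (Sftpa1) in the 4 groups over the 6 of 10 listed genes that were measured. The probe of Mapk8, the gene of JNK1, was at the authors' floor on 3 of 4 ventilated and 3 of 3 control jnk1-/- arrays and on 2 of 4 ventilated and 1 of 3 control wild-type arrays, so it checks the genotype little. Wild-type control arrays 2 and 3 differed by an SD of 0.38 over bright probes, against 0.58 and 0.48 for their pairs with array 1. Likewise jnk1-/- control arrays 1 and 2 differed by 0.33, against 0.68 and 0.67 with array 3. Pairs of ventilated arrays differed by 0.45 to 0.69 in jnk1-/- and by 0.40 to 0.48 in wild-type mice, so the wild-type control pair lay little below them. Whether the arrays of the close control pairs are independent samples could not be settled, so the 3 control samples of each genotype are in doubt. With each pair averaged to 1 sample, the member genes called after ventilation, given next, were 2 in jnk1-/- and 1 in wild-type lungs. Over all 19621 probes, 648 were then called higher and 370 lower in jnk1-/- lungs, and 157 and 64 in wild-type lungs. Without averaging these counts were 1320, 983, 430 and 293.

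Markers of other tissues stood apart in the jnk1-/- control lungs. Of 11 skeletal muscle markers measured, 10 were higher in jnk1-/- than in wild-type controls, and of 12 markers of stratified squamous epithelium also 10. The summed muscle signal (log2) was 8.08 to 8.42 in ventilated and 13.07 to 13.62 in control jnk1-/- lungs, and 8.43 to 9.12 in ventilated and 8.71 to 9.03 in control wild-type lungs. The squamous signal was 8.99 to 9.50 in ventilated and 12.31 to 13.35 in control jnk1-/- lungs, and 8.57 to 8.78 in ventilated and 7.98 to 8.70 in control wild-type lungs. All 3 jnk1-/- controls carried this signal, so no jnk1-/- ventilation effect, control genotype comparison or difference of the effects can be given without it, and its part in them was not tested. Between ventilated lungs no marker of either list was called, though neither summed signal overlapped between the genotypes. The squamous sum was higher and the muscle sum lower in ventilated jnk1-/- than in ventilated wild-type lungs, and their part in that comparison was not tested.

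Ventilation raised 5 of the 9 measured genes in jnk1-/- lungs and 4 in wild-type lungs, and lowered none (adjusted p under 0.05 in 1 limma fit, Benjamini-Hochberg over all probes). Tnfrsf12a, Tnfrsf1a, Nfkbia and Nfkb2 were called in both genotypes, and Birc3 in jnk1-/- lungs. Over all probes, 6.73% were called higher and 5.01% lower after ventilation in jnk1-/- lungs, and 2.19% higher and 1.49% lower in wild-type lungs. The ventilated and control arrays did not overlap, with ventilated higher, for 5 genes in jnk1-/- and 6 in wild-type lungs, against 12.3% and 11.4% of all probes. The median log2 fold change of the 9 genes was 0.84 in jnk1-/- and 0.94 in wild-type lungs, beside −0.04 and 0.08 over all probes. The members were chosen with earlier results of these data known, so these counts and medians are descriptions. In the authors' table, where the wild-type calls over all probes are 554 higher and 584 lower in place of 430 and 293, the same 5 and 4 member genes were past the threshold.

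**Figure D1:**
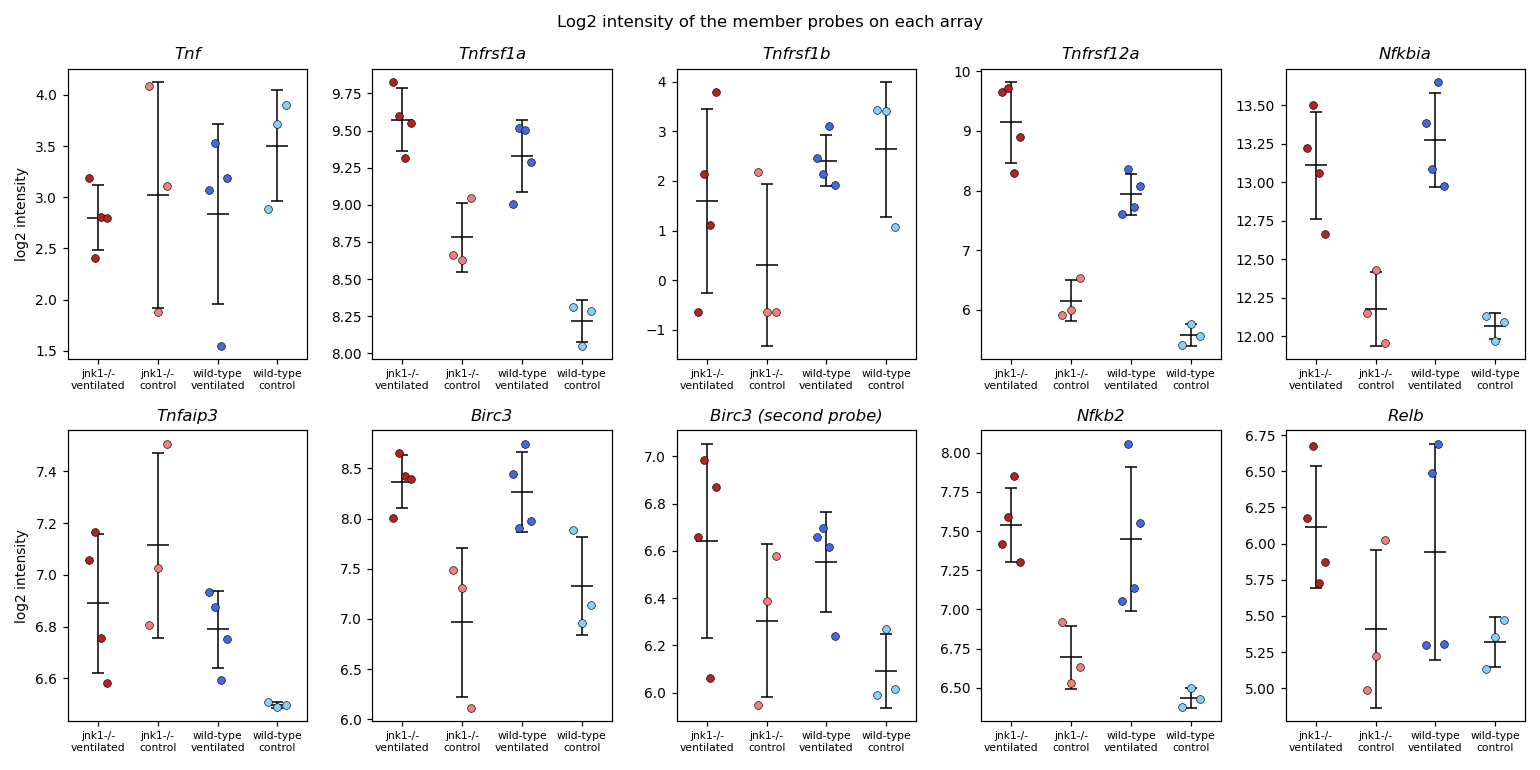
Log2 intensity of each member probe (vertical axis, own scale per panel) on each array, by group, with ventilated left of control and jnk1-/- left of wild-type mice; points are arrays, bars the mean and SD. Tnfrsf12a separated ventilated from control arrays by the widest margin, while Tnf and Tnfrsf1b were dim and scattered.

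Among the receptors, Tnfrsf12a changed most. Its log2 intensity was 9.66, 9.73, 8.30 and 8.89 on the ventilated jnk1-/- arrays, against 5.91, 6.00 and 6.54 on the jnk1-/- control arrays. On the ventilated wild-type arrays it was 7.61, 8.36, 7.72 and 8.07, against 5.41, 5.77 and 5.56 on the wild-type control arrays. All 8 ventilated arrays lay above all 6 controls. The change was 7.95-fold in jnk1-/- lungs (log2 2.99 ± 0.34, SE, adjusted p = 0.00042 in limma) and 5.12-fold in wild-type lungs (log2 2.36 ± 0.34, SE, adjusted p = 0.00405). The study placed Tnfrsf12a in a list of changed genes chosen on these arrays, so its direction is not independent evidence. Leaving out any single array kept both calls, with fold changes on the log2 scale of 2.80 to 3.27 in jnk1-/- and 2.22 to 2.47 in wild-type lungs.

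Tnfrsf1a, the main receptor of soluble TNF, also rose in both genotypes. It had 9.83, 9.60, 9.32 and 9.55 in ventilated jnk1-/- lungs, against 8.66, 8.63 and 9.05 in jnk1-/- control lungs. The ventilated wild-type lungs had 9.01, 9.52, 9.51 and 9.29, against 8.31, 8.05 and 8.29 in wild-type control lungs. Within each genotype the groups did not overlap, though the lowest ventilated wild-type array lay just under the highest jnk1-/- control. The rise was 1.73-fold in jnk1-/- lungs (log2 0.79 ± 0.19, SE, adjusted p = 0.0204) and 2.16-fold in wild-type lungs (log2 1.11 ± 0.19, SE, adjusted p = 0.00943). The jnk1-/- call ended without jnk1-/- control array 1 or 2 (adjusted p = 0.0752 and 0.0765). Of the 9 alternatives other than leaving out an array, the jnk1-/- call ended under 4 and the wild-type call under 3.

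Tnfrsf1b, the leukocyte and endothelial TNF receptor, and Tnf itself were too dim to compare. Tnfrsf1b was at the authors' floor on 3 of 4 ventilated and 3 of 3 control jnk1-/- arrays, and on 4 of 4 ventilated and 1 of 3 control wild-type arrays. Its values ran between −0.63, the floor used here, and 3.78 over the 14 arrays. Tnf was at the authors' floor on 4 of 4 ventilated and 1 of 3 control jnk1-/- arrays and on 2 of 4 ventilated and 1 of 3 control wild-type arrays. Its log2 fold change was −0.23 in jnk1-/- lungs (95% interval −1.40 to 0.95) and −0.67 in wild-type lungs (−1.84 to 0.51). At this signal neither a higher nor a lower level could be told from none, so the intervals do not bound the change.

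Of the inhibitors of the signal, Nfkbia rose in both genotypes. The gene, whose product holds NF-kB in the cytoplasm, had 13.22, 13.50, 13.06 and 12.67 in ventilated jnk1-/- lungs, against 12.15, 12.43 and 11.95 in jnk1-/- control lungs. In ventilated wild-type lungs it had 13.38, 13.09, 13.65 and 12.98, against 12.13, 11.97 and 12.09 in wild-type control lungs. As with Tnfrsf12a, every ventilated array was above every control array. The changes were 1.91-fold (log2 0.93 ± 0.23, SE, adjusted p = 0.022) in jnk1-/- and 2.31-fold (log2 1.21 ± 0.23, SE, adjusted p = 0.0147) in wild-type lungs. The jnk1-/- call ended when jnk1-/- control array 1 or 3 or ventilated array 1 or 2 was left out (adjusted p = 0.0502 to 0.0683), and the wild-type call without wild-type control array 2 or 3 (0.0614 and 0.0534).

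Tnfaip3, with 2 NF-kB matches and an AP-1 motif in the promoter window shown, did not pass the test in either genotype. It had 7.06, 7.17, 6.75 and 6.58 in ventilated jnk1-/- lungs, against 6.81, 7.03 and 7.51 in jnk1-/- control lungs. The ventilated wild-type arrays had 6.93, 6.88, 6.59 and 6.75, against 6.51, 6.49 and 6.50 on the wild-type control arrays. The jnk1-/- groups overlapped, and the wild-type groups did not, by a narrow margin. The log2 fold change was −0.22 in jnk1-/- lungs (95% interval −0.66 to 0.21, adjusted p = 0.543 in limma) and 0.29 in wild-type lungs (−0.15 to 0.73, adjusted p = 0.459).

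Birc3, an inhibitor of cell death that also acts as ubiquitin ligase at the TNF receptor, passed the test in jnk1-/- lungs. Its brighter probe had 8.01, 8.65, 8.42 and 8.40 in ventilated jnk1-/- lungs, against 7.48, 7.31 and 6.12 in jnk1-/- control lungs. In ventilated wild-type lungs the values were 8.45, 7.90, 8.75 and 7.98, against 7.89, 6.96 and 7.14 in wild-type control lungs. One jnk1-/- control array was lower than all others, and in wild-type mice the groups all but touched, at 7.90 for the lowest ventilated and 7.89 for the highest control array. The log2 fold change was 1.40 ± 0.35 (SE, adjusted p = 0.0263) in jnk1-/- and 0.94 ± 0.35 (SE, adjusted p = 0.162) in wild-type lungs. The second probe gave 0.34 (adjusted p = 0.419) and 0.46 (adjusted p = 0.314) and passed in neither, so the probes of this gene disagree in size. Without the low jnk1-/- control array 3 the brighter probe's change in jnk1-/- lungs was 0.97 (adjusted p = 0.0791), and the call also ended without ventilated jnk1-/- array 2 or 4 (0.0658 and 0.0592).

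The subunit gene Nfkb2, which encodes the p100 precursor of the alternative NF-kB pathway, had 7.41, 7.59, 7.85 and 7.30 in ventilated jnk1-/- lungs, against 6.92, 6.53 and 6.63 in jnk1-/- control lungs. The ventilated wild-type lungs had 7.05, 8.06, 7.14 and 7.55, against 6.38, 6.50 and 6.43 in wild-type control lungs. No ventilated array fell within the controls of its genotype. The increase was 1.80-fold (log2 0.84 ± 0.24, SE, adjusted p = 0.0411) in jnk1-/- and 2.02-fold (log2 1.01 ± 0.24, SE, adjusted p = 0.0404) in wild-type lungs. Both calls stood close to the threshold. The jnk1-/- call was lost on leaving out any one of 11 arrays, all but wild-type ventilated arrays 1, 2 and 3 (log2 0.74 to 0.96, adjusted p = 0.051 to 0.128). In wild-type mice it was lost for 10 of 14 arrays, all but wild-type ventilated array 1, jnk1-/- control array 3 and jnk1-/- ventilated arrays 1 and 3 (log2 0.81 to 1.12, adjusted p = 0.0509 to 0.121).

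Relb, the partner of the Nfkb2 product, was higher on average after ventilation in both genotypes but passed the test in neither. It had 6.18, 6.68, 5.73 and 5.87 in ventilated jnk1-/- lungs, against 4.99, 5.22 and 6.03 in jnk1-/- control lungs. The wild-type values were 5.30, 6.48, 6.69 and 5.31 with ventilation, against 5.13, 5.36 and 5.47 without. In each genotype 2 ventilated arrays lay above all controls and 2 within them. The log2 fold change was 0.70 (95% interval −0.15 to 1.56, adjusted p = 0.289) in jnk1-/- and 0.62 (−0.23 to 1.48, adjusted p = 0.412) in wild-type lungs.

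**Figure D2:**
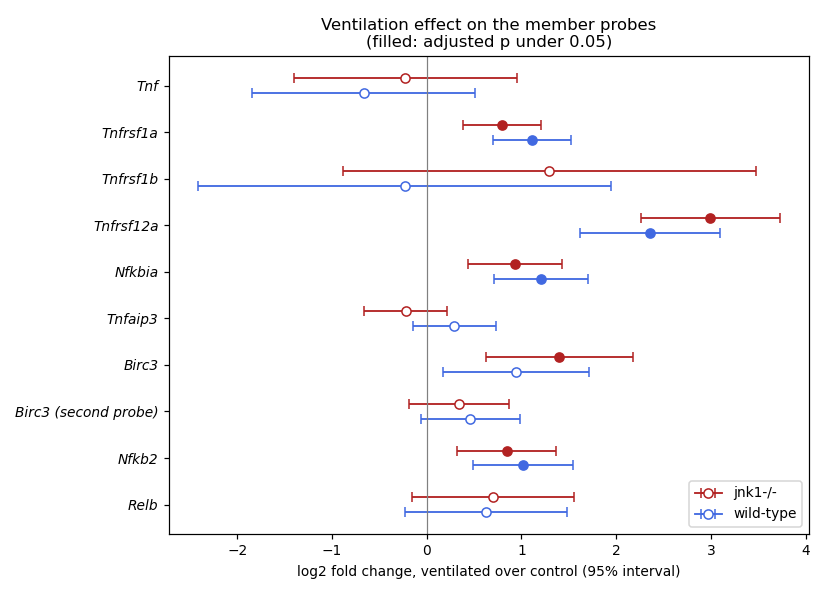
Log2 fold change of ventilated over control lungs for each member probe (horizontal axis), jnk1-/- above wild-type; points are limma estimates, bars 95% intervals, filled points adjusted p under 0.05. The intervals of the genotypes overlap for every probe, and the longest belong to Tnf and Tnfrsf1b.

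Whether the response to ventilation depended on JNK1 was asked by the difference of the 2 ventilation effects, jnk1-/- minus wild type. None of the 9 genes passed (0.398% of all probes did), and none did at an unadjusted p under 0.05 (12.9% of all probes did), the lowest being 0.0951 for Tnfaip3. The difference on the log2 scale was 0.63 for Tnfrsf12a (95% interval −0.41 to 1.67), −0.32 for Tnfrsf1a (−0.91 to 0.26), −0.28 for Nfkbia (−0.98 to 0.42), 0.46 for Birc3 (−0.64 to 1.55) and −0.17 for Nfkb2 (−0.91 to 0.57). Each of these intervals spans more than 1 unit, so they do not show that the genotypes responded alike.

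Between ventilated mice of the 2 genotypes no member passed either, beside 0.525% of all probes. Tnfrsf12a came nearest, at 9.14 ± 0.68 in ventilated jnk1-/- lungs and 7.94 ± 0.34 in ventilated wild-type lungs (SD, n = 4 each). Its log2 fold change was 1.21 ± 0.31 (SE, unadjusted p = 0.00227 and adjusted p = 0.154 in limma). The lowest jnk1-/- array, replicate 3 at 8.30, lay just below the highest wild-type array at 8.36. Without that jnk1-/- array the change was 1.49 and passed (adjusted p = 0.0291), and it passed also when dim probes were left out before the fit (adjusted p = 0.0336). For the other 8 genes the log2 fold change lay between −0.81 (Tnfrsf1b) and 0.24 (Tnfrsf1a).

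Between control lungs 0 of the 9 genes passed the test (4.05% of all probes did), and 3 had an unadjusted p under 0.05, as 20.6% of all probes did. The jnk1-/- controls were above all wild-type controls for 4 genes, against 13.6% of all probes. Tnfaip3 averaged 7.11 ± 0.36 in jnk1-/- controls and 6.50 ± 0.01 in wild-type controls (SD, n = 3 each), a log2 fold change of 0.62 ± 0.21 (SE, adjusted p = 0.136). Tnfrsf1a averaged 8.78 ± 0.23 in jnk1-/- controls and 8.22 ± 0.14 in wild-type controls, a log2 fold change of 0.57 ± 0.20 (SE, adjusted p = 0.144). The others without overlap were Tnfrsf12a (0.57, adjusted p = 0.396) and Nfkb2 (0.26, adjusted p = 0.608). Tnfrsf1b, with an unadjusted p of 0.0495, was at the authors' floor on every jnk1-/- control array.

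In these tissue samples a change in the share of a cell type cannot be told apart from a change of RNA per cell, and markers of other cells moved along with the members. Of the 11 measured neutrophil markers of 15, ventilation raised 7 and lowered 1 in jnk1-/- lungs, and raised 7 and lowered none in wild-type lungs. Their summed intensity was 13.56 to 14.93 in ventilated and 11.02 to 11.25 in control jnk1-/- lungs, and 14.25 to 14.98 in ventilated and 11.66 to 12.30 in control wild-type lungs (log2). Mmp8, the neutrophil collagenase, changed by 5.41 on the log2 scale in jnk1-/- and 5.31 in wild-type lungs, Il1r2, a decoy receptor of interleukin-1, by 5.23 and 6.25, and Clec4d, a lectin receptor of myeloid cells, by 3.48 and 3.34. The part of neutrophils in the rise of Nfkbia, Tnfrsf1a and the others was not tested.

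The remaining cell type lists moved less. Of the 9 macrophage and monocyte markers measured, ventilation raised 1 in each genotype, Cd14, the endotoxin co-receptor, by 1.01 on the log2 scale in jnk1-/- and 1.73 in wild-type lungs. The median of the list was −0.31 in jnk1-/- and 0.40 in wild-type lungs. Its summed signal (log2) was 14.78 to 14.99 in ventilated and 15.10 to 15.71 in control jnk1-/- lungs, without overlap, and 14.53 to 14.94 in ventilated and 14.46 to 14.93 in control wild-type lungs. Ventilation lowered 4 of 9 B cell markers in jnk1-/- and 3 in wild-type lungs, and 2 of 11 T and NK cell markers in jnk1-/- lungs and none in wild-type lungs. The B cell sum, ventilated against control, was 9.38 to 9.88 against 11.07 to 12.27 in jnk1-/- lungs. In wild-type lungs it was 9.56 to 9.69 against 10.31 to 11.29. The T and NK cell sum was 9.57 to 10.32 against 10.90 to 11.04 in jnk1-/- lungs. In wild-type lungs its groups overlapped, at 9.59 to 10.34 against 10.27 to 10.54. Of 9 endothelial markers 1 was higher in jnk1-/- and 1 lower in wild-type lungs, and of 6 lung epithelium markers 1, the surfactant protein gene Sftpb, was lower in jnk1-/- lungs (−1.36). Sftpb and 1 B cell marker were higher in jnk1-/- than in wild-type controls, Sftpb by 1.78. Between controls the macrophage and the T and NK cell sums were also higher in jnk1-/- lungs, without overlap. The neutrophil and endothelial sums were lower without overlap, the endothelial one at 13.33 to 13.47 against 13.68 to 13.78. The B cell and lung epithelium sums overlapped. The part of these differences in the control genotype comparison was not tested.

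The wider pathway was followed in 5 lists with 78 of their 90 genes measured. In jnk1-/- lungs ventilation raised 12 and lowered 3, against 11.7% of all probes called, and in wild-type lungs it raised 3 and lowered 2, against 3.68%. The median log2 fold change of the 78 genes was 0.18 and 0.08, beside −0.04 and 0.08 over all probes. Between controls 1 gene of the 78 passed, and in the other comparisons none.

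**Figure D3:**
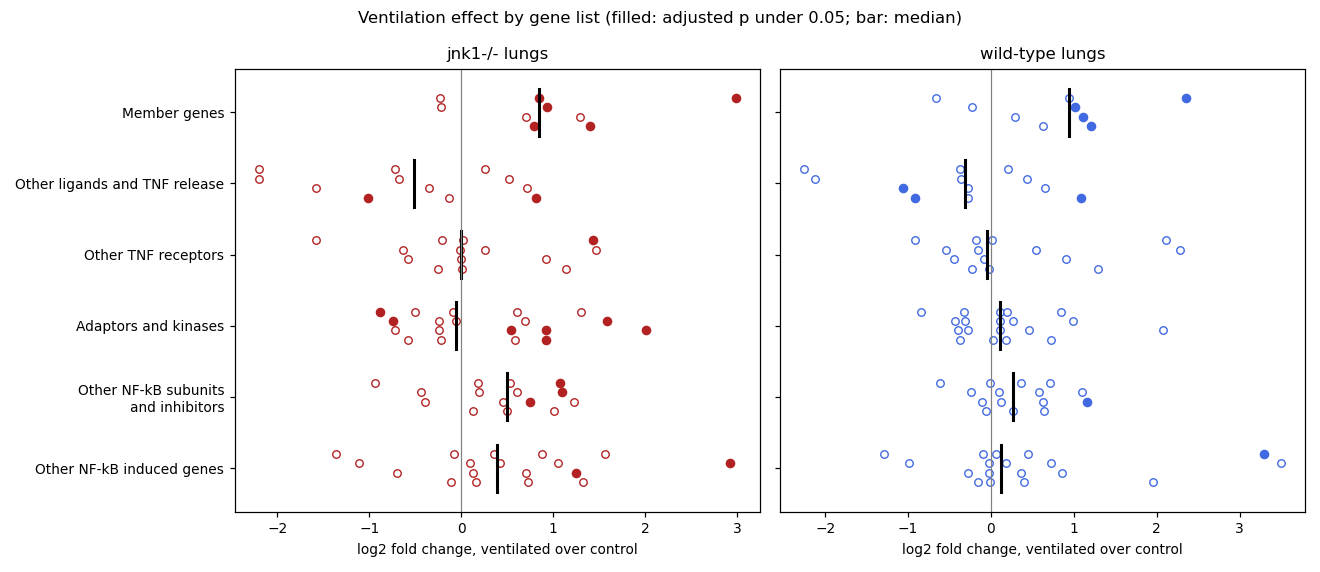
Log2 fold change of ventilated over control lungs (horizontal axis) for the 9 member genes and the 5 pathway lists, jnk1-/- on the left and wild-type on the right; each point is a gene, filled where the adjusted p was under 0.05, and the black bar is the list's median. The members' medians of 0.84 and 0.94 lie to the right of every other list's median. Members and lists were chosen with earlier results of these data known, so this order is a description only.

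Of the 12 ligand and TNF-release genes, Zfp36, whose product destabilises Tnf mRNA, rose by 0.82 on the log2 scale in jnk1-/- lungs (adjusted p = 0.0313 in limma) and 1.09 in wild-type lungs (adjusted p = 0.02). Tnfsf13, which encodes the B cell factor APRIL, changed by −1.01 and −1.06, and Tnfsf10, which encodes the death ligand TRAIL, by −0.91 in wild-type lungs. Of 14 other receptors 1 was called, Fas, the receptor of Fas ligand, at 1.43 in jnk1-/- lungs.

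Among 19 adaptors and kinases none was called in wild-type lungs, whereas in jnk1-/- lungs 5 were higher and 2 lower. Map3k14, which encodes the kinase NIK that drives processing of the Nfkb2 product, changed by 2.01 on the log2 scale in jnk1-/- lungs, and Ikbkb and Tbk1, kinases of the IKK family, by 0.92 each. The mean of Map3k14 in jnk1-/- controls, 3.53, lay near the authors' floor of 3.12, so the size of its change is uncertain. Fadd, the adaptor of death receptors, changed by −0.74. In wild-type lungs Map3k14 gave 0.99 (adjusted p = 0.286), and no adaptor or kinase was called in the difference of the effects.

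Of 15 other subunits and inhibitors, Nfkbib, which encodes a second inhibitor of NF-kB, rose in both genotypes, by 0.75 in jnk1-/- and 1.16 in wild-type lungs. In jnk1-/- lungs Tnip2, which encodes a partner of the Tnfaip3 product, and Otud7b, a deubiquitinase gene, also rose, by 1.07 and 1.10. Of 18 other NF-kB induced genes, Il6 was called in both genotypes, at 2.93 in jnk1-/- lungs (adjusted p = 0.0165) and 3.30 in wild-type lungs (adjusted p = 0.0214). Its mean in wild-type controls was 3.52, with 1 of the 3 arrays at the authors' floor, so the size of the wild-type change is uncertain. Il6 encodes interleukin-6 and was named by the study among its changed genes, so its direction is no independent evidence. Gadd45b, a stress response gene, was called in jnk1-/- lungs at 1.25, and the other 16 in neither genotype.

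The members called were also set against 12122 other probes by Pearson correlation over the 14 arrays, which share the ventilation groups, so the values are descriptions. Tnfrsf12a was most like Ddx21 (r = 0.971), a nucleolar RNA helicase gene, Gadd45a (0.964), a growth arrest gene, and Errfi1 (0.964), an inhibitor of the EGF receptor. Errfi1 was also near Tnfrsf1a (0.95), with Ceacam14 (0.962) and Fosl1 (0.947), which encodes an AP-1 subunit. Nfkbia was most like the myeloid gene Clec4d (0.946), Adam8 (0.945), a leukocyte metalloprotease gene, and Ddit4 (0.941), an inhibitor of mTOR signaling. For Birc3 the nearest were Akirin1 (0.962), Map2k1 (0.96) and Foxo1 (0.95), and for Nfkb2 they were Fgfr1 (0.943), Pfdn6 (0.935) and Rhoc (0.923). Among the members themselves, Tnfrsf1a and Tnfrsf12a were most alike (0.934), followed by Nfkbia and Birc3 (0.843).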

How the data were processed

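Lung RNA was measured on single-colour CodeLink arrays. The authors deposited log2 intensities per array, with a lowest value of −6.86 and not scaled between arrays (medians 4.98 to 6.37), and a normalized log2 table. Per array 1.86% to 10.7% of values were at the lowest value, the most on wild-type controls 2 and 3. The deposited intensities were normalized by cyclic loess over array pairs (3 iterations), the method the authors name, and a floor was then set at percentile 1 (−0.63). Correlations with the authors' table above its floor were 0.9897 for wild-type control 2, the lowest, to 0.9998. Group means of all 14 arrays were fitted in limma 3.58.1 (R 4.3.3), with 5 contrasts and Benjamini-Hochberg adjustment over 19621 probes; the threshold was 0.05. Precision is limited by how many arrays there were. Of the probes, 15353 name 1 gene, 91 several and 4177 none in the platform table. Steps were tested on simulated data, for each comparison with 100 of 19621 probes changed 2-fold and 100 changed 4-fold. Under ventilation 4-fold changes were recovered for 60% (jnk1-/-) and 65% (wild type) of changed probes. For 2-fold changes it was 15% and 17%. Of all calls, with both sizes of change together, 3.85% and 2.38% were false. In the data 2303 and 723 probes were called after ventilation, so these rates do not give the power of those comparisons. Between controls 4-fold changes were recovered for 54% and 2-fold changes for 4%, with 9.38% false calls, and between ventilated lungs for 64% and 25%, with 4.30%.

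Named genes are all members, up to 4 genes per pathway list and ventilation comparison by adjusted p without overlap, the 3 most correlated probes per called member, up to 3 markers per neutrophil and macrophage list, and Mapk8. Members and lists were chosen with earlier results of these data known. Wild-type ventilated replicate 2 carries a label that was read as wild type. The authors' quality flags were not used here. Alternatives tried were quantile normalization, the authors' table, the methods' t-test, a fit of the compared groups alone, no dim probes, no floor, a replicate block, closely alike controls averaged, the mean over a gene's probes and each array left out. Plots used Python 3.11.15 and matplotlib 3.10.9.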

Additional observations from a re-analysis of the deposited data

How the results depend on the processing

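The number of member genes past the threshold after ventilation was 5 in jnk1-/- and 4 in wild-type lungs. It was 2 and 2 with the replicate number as a block, 2 and 1 with the closely alike control arrays averaged, and 0 and 0 by the methods' t-test (59 and 10 of all probes passed), where 4 and 5 members and 18.8% and 17.2% of all probes passed unadjusted. Calls over all 19621 probes also fell under the block and the averaging. Under the block 734 were higher and 530 lower in jnk1-/- lungs, and 199 and 103 in wild-type lungs. With the arrays averaged they were 648 and 370, and 157 and 64. A fit of the compared groups alone gave 1 member gene in jnk1-/- lungs, where 422 of all probes were called higher and 235 lower. Leaving out each array in turn gave 2 to 5 and 2 to 4 member genes, beside 1285 to 2637 and 311 to 1043 of all probes. The member count was 2 in jnk1-/- lungs without jnk1-/- control array 1 or 3 or ventilated array 2. It was 2 in wild-type lungs without wild-type control array 2 or 3. In ventilated lungs of both genotypes the count of 0 became 1, Tnfrsf12a, with dim probes left out, and 0 to 1 with each array left out. Between controls and for the difference of the effect it was 0 under every alternative run. The cause of these changes was not tested. The calls of Tnfrsf12a were lost only in the methods' t-test (adjusted p = 0.0751 and 0.0552), which was not run for the difference of the effect. That t-test was run on the intensities as normalized here and on all probes, without the study's quality filter. It is therefore not a repeat of the study's own test, whose list of changed genes holds Tnfrsf12a. Of the 9 alternatives other than leaving out an array, calls in jnk1-/- and wild-type lungs ended under 4 and 3 for Tnfrsf1a. For Nfkbia they ended under 3 and 2, and for Nfkb2 under 4 and 5. The jnk1-/- call of Birc3 ended under 3.

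The directions that reversed were those of uncalled values. With each array left out, Tnfrsf1b in wild-type lungs ran between −1.02 and 0.17, with 0.17 and 0.15 without wild-type control arrays 1 and 2. Tnf in jnk1-/- lungs ran between −0.80 and 0.30, the highest without jnk1-/- control array 1. The difference of the effect for Nfkb2 ran between −0.30 and 0.032, the highest without ventilated wild-type array 2.

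Same-numbered arrays of different groups did not deviate together on the whole (correlations −0.32 to 0.24, median −0.03). Arrays with different numbers gave −0.21 to 0.32, median 0.03. A pairing by number was not seen, though so few arrays cannot exclude it, and the block is given as a count only. Under the block 1264 and 302 probes were called after ventilation in jnk1-/- and wild-type lungs, in place of 2303 and 723, with 384 in place of 795 between controls, 54 in place of 103 between ventilated lungs and 25 in place of 78 for the difference. With closely alike arrays averaged the counts were 1018, 221, 154 and, for the difference, 19. A fit of the compared groups alone gave 657, 454 and, between controls, 137. The authors' table gave 1138 in wild-type lungs, 168 between ventilated lungs and 207 for the difference, and dim probes left out gave 209 and 185 for these last comparisons. The methods' t-test called 2 probes between controls and 17 between ventilated lungs. Leaving out each array moved the counts within 1285 to 2637, 311 to 1043, 232 to 1076, 47 to 226 and 32 to 254. Tnf and Tnfrsf1b lie at or near the signal floor, which limits any statement on them.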

Other observations

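Single genes of the lists stood out after their values were seen and are given as values. Tnip1, which encodes a partner of the Tnfaip3 product, was higher in jnk1-/- controls, at 6.72 ± 0.36, than in wild-type controls, at 5.18 ± 0.57 (SD, n = 3 each), a log2 fold change of 1.53 (adjusted p = 0.0175 in limma). After ventilation it was 6.33 ± 0.25 in jnk1-/- and 6.28 ± 0.27 in wild-type lungs (SD, n = 4 each), and the difference of its ventilation effect was −1.49 (adjusted p = 0.155). Muscle and squamous markers were also higher in these jnk1-/- controls, and their part was not tested.

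Tnfsf12, the gene of TWEAK, the ligand of the Tnfrsf12a receptor, did not pass in either genotype. It averaged 6.69 ± 0.30 in ventilated and 7.41 ± 0.27 in control jnk1-/- lungs, and 7.02 ± 0.32 in ventilated and 6.82 ± 0.19 in control wild-type lungs (SD, n = 4 ventilated and 3 controls). The log2 fold changes were −0.72 (adjusted p = 0.0651) and 0.20 (adjusted p = 0.681).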
